A study of Bos taurus with 4 samples.

Results

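The nuclei described here are the fast end of the skeletal muscle fibre nuclei found in 2 single-nucleus RNA libraries labelled as cattle subcutaneous back fat. They were chosen from measured counts. In each library, nuclei with at least 200 detected genes were kept when they held at least 30 unique molecular identifiers (UMIs, each a count of 1 captured RNA molecule) of 15 fibre genes. Of these genes 8 mark slow fibres (MYH7, TNNI1, TNNT1, TNNC1, MYL2, MYL3, MYL6B and TPM3) and 7 mark fast fibres (MYH1, TNNT3, TNNI2, TNNC2, MYLPF, MYBPC2 and ATP2A1). The slow share of a nucleus is its slow-gene UMIs over its UMIs of all 15 genes. The 15% of nuclei with the lowest slow share in each library are called fast-end fibre nuclei, 31 in animal 1 and 875 in animal 2. They number 906 of 8849 nuclei with at least 200 genes in all 4 libraries of the study. They are set against the remaining fibre nuclei, those between the 15th and the 95th percentile of the slow share, 156 in animal 1 and 4667 in animal 2.

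The study took nuclei from subcutaneous and intramuscular fat of 2 beef steers, with 1 library per depot and animal. Both steers came from a commercial feedlot, got no experimental treatment and were managed alike, and their breed, age and diet are given as unknown. All nuclei compared here therefore share the same label, untreated subcutaneous back fat, and the 2 groups are classes of nuclei inside the same 2 libraries. The 4 libraries shared 0 to 2 barcodes pairwise and held 105481 to 4009437 UMIs in nuclei with at least 200 genes.

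A muscle fibre is a single large cell with many nuclei. Slow, type I fibres use the myosin heavy chain MYH7 and rely on mitochondria. Fast fibres use MYH2 (type IIa, fast and oxidative), MYH1 (type IIx) or, in some species and muscles, MYH4 (type IIb), and the IIx and IIb fibres rely most on the breakdown of glycogen and glucose.

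Fibre genes were found in the libraries labelled subcutaneous and hardly at all in those labelled intramuscular. Whether the depot labels were exchanged cannot be told from these data, so the depot of the nuclei is given here as labelled. The minimum of 30 fibre UMIs was reached by 197 of 881 nuclei (22.4%) in animal 1 and by 5834 of 6128 (95.2%) in animal 2 in the libraries labelled subcutaneous. None of the 1777 and 63 intramuscular nuclei reached it, which allows shares of up to 0.169% and 4.76%. In animal 2 the minimum separated few nuclei from the rest. Of 108 nuclei there with at least 5 UMIs of blood endothelial markers, a set chosen after seeing the data, 95 also reached it, against 16 of 144 in animal 1. These endothelial-marker nuclei are used below as a measure of muscle RNA in nuclei of another type. They are not separate from the fibre classes. In animal 2, 7 of them are themselves fast-end nuclei, and in animal 1 0 are. The others that reached the minimum lie in the other fibre classes. The 7 fast genes took 3.92% of the UMIs of the endothelial-marker nuclei in animal 2 and 0.454% in animal 1.

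The fast-end nuclei were low in slow-fibre RNA in both animals, by choice. Pooled over nuclei, their slow share was 1.19% in animal 1 and 1.39% in animal 2, against 51.2% and 9.08% in the remaining fibre nuclei. A slow share of 0 was found in 3 fast-end nuclei of animal 1 and in 112 of animal 2. The last nucleus inside the limit in animal 1 had 4 slow-gene UMIs of 168, and the first outside had 2 of 83. In animal 2 these were 4 of 171 and 3 of 128, so neighbours on either side of the limit were alike.

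The remaining fibre nuclei were a different mixture in each animal. In animal 1 their slow share ran from 2.41% to 97.98%, with a median of 26.2% and many nuclei near either end. In animal 2 it ran from 2.34% to 43.1% with a median of 7.14% and a single peak. Fast-end nuclei were also deeper, with medians of 1242 and 653 UMIs per nucleus in animals 1 and 2, against 1031 and 500 in the remaining fibre nuclei. Fast-gene RNA took 15.7% and 19.2% of UMIs in the fast-end nuclei, against 4.38% and 13.4%.

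**Figure D1:**
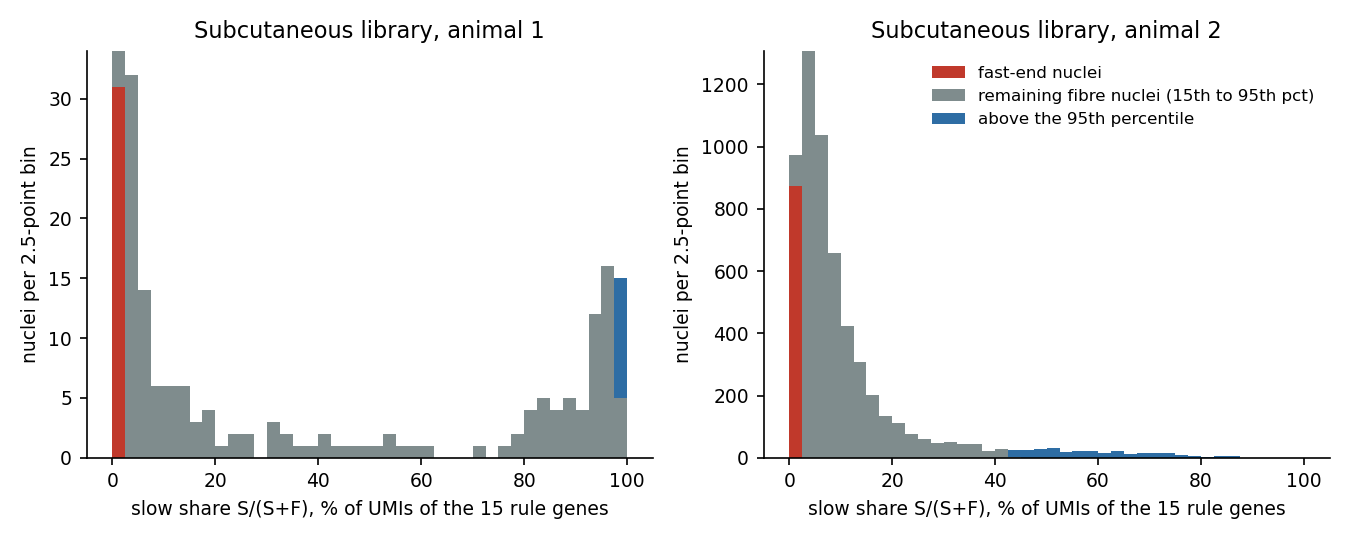
Number of nuclei (y axis) by slow share in percent (x axis, bins of 2.5 points) in the subcutaneous library of each animal, stacked as fast-end nuclei, remaining fibre nuclei and nuclei above the 95th percentile. In animal 1 the nuclei gather near both ends of the axis, while in animal 2 they form 1 peak near the fast end and thin out towards higher shares.

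The label of fast glycolytic fibres, marked by MYH1, did not hold in animal 1. There the fast-end nuclei had 455 UMIs of MYH1 per 1000000 UMIs of all genes (CPM), from 21 UMIs, and 19 of the 31 nuclei had none. Their fast myosin was MYH2, which the choice of nuclei did not use, at 52572 CPM. In animal 2 the fast-end nuclei had 28665 CPM of MYH1 and 9503 CPM of MYH2. The 3′ UMI counts are per molecule and were not scaled to gene length, and the 2 myosin genes are close paralogs, so how the authors' counting split their reads is uncertain. MYH4 had no UMI in any of the 906 fast-end nuclei, and 9 UMIs in the remaining fibre nuclei of each animal. The nuclei are therefore called fast-end and not glycolytic.

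The other fast marker genes were high in both animals. The fast troponin C gene TNNC2, which binds calcium on the thin filament, had 48430 and 50735 CPM in the fast-end nuclei of animals 1 and 2, against 14166 and 35293 CPM in the remaining fibre nuclei. MYLPF, the fast regulatory myosin light chain, had 47627 and 48688 CPM, against 13461 and 33263 CPM. TNNI2, the fast inhibitory troponin, had 24616 and 29264 CPM, against 6636 and 19614 CPM. The fast-end levels of these genes were close in the 2 animals, and the remaining fibre nuclei of animal 1 were lower than those of animal 2.

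TNNT3, the fast troponin that binds tropomyosin, had 26286 and 23655 CPM in the fast-end nuclei, against 6334 and 15557 CPM. MYBPC2, the fast myosin-binding protein, and ATP2A1, the calcium pump of fast fibres, had lower levels of 5661 and 6686 CPM and of 3904 and 4647 CPM, against 1510 and 5340 CPM and 1300 and 3763 CPM. Of the slow genes, MYH7 had 325 and 697 CPM in the fast-end nuclei, against 12907 and 4075 CPM. The slow light chain gene MYL2 had 607 and 742 CPM, against 13394 and 3354 CPM. These values chose the nuclei and are a description only.

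MYH1 and MYH2 divided the fast-end nuclei of animal 2 among themselves. Of the 875 nuclei, 810 had at least 10 UMIs of the 2 genes together. MYH1 made up 80% or more of these UMIs in 519 nuclei (64.1%), 20% or less in 47 (5.80%), and a share in between in 244 (30.1%). In the remaining fibre nuclei of animal 2, 1554 of 3419 (45.5%) had 80% or more, 171 (5.0%) had 20% or less, and 1694 (49.5%) lay in between. All 31 fast-end nuclei of animal 1 had 20% or less, as did 79 of 84 remaining fibre nuclei (94.0%). Pooled, the MYH1 share of both myosins was 0.859% and 75.1% in the fast-end nuclei of animals 1 and 2, against 2.5% and 68.4% in the remaining fibre nuclei. It was 4.60% and 69.7% in the endothelial-marker nuclei, so muscle RNA in nuclei of another type differed between the animals in the same way. MYH1 counts towards the slow share and MYH2 does not, so the choice itself favours nuclei rich in MYH1. The difference in MYH1 share between the classes is therefore a description only.

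**Figure D2:**
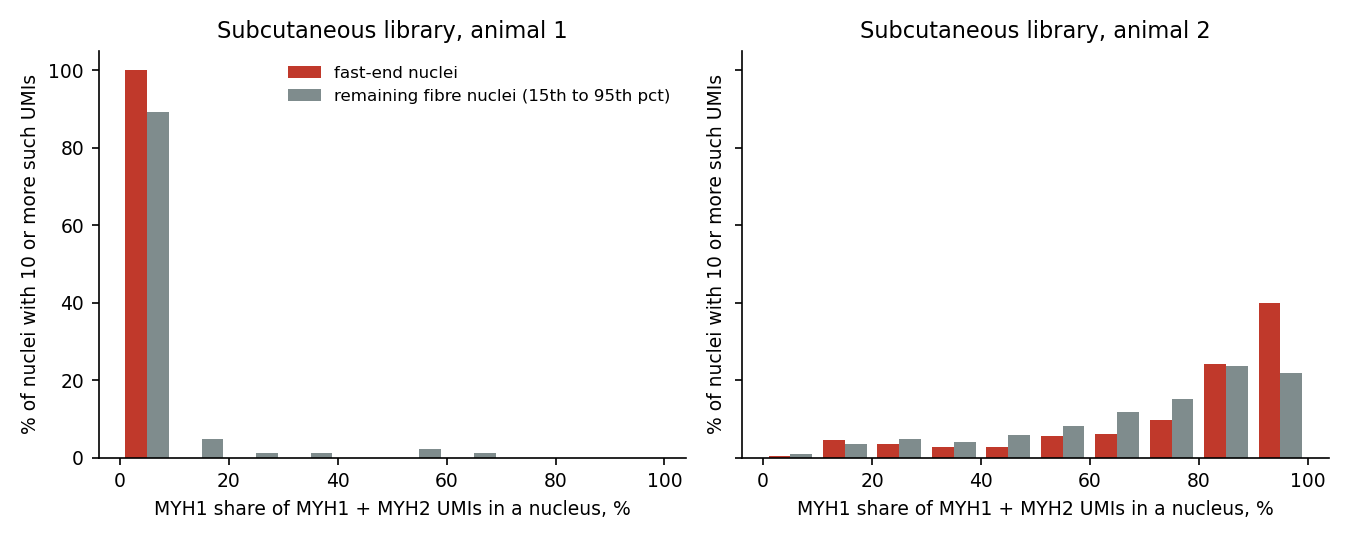
Percent of nuclei (y axis) by the MYH1 share of the MYH1 and MYH2 UMIs in a nucleus (x axis, percent, bins of 10 points), for nuclei with at least 10 such UMIs in each subcutaneous library. All 31 fast-end nuclei of animal 1 lie below 10%, and 64.1% of the 810 fast-end nuclei of animal 2 lie at 80% or more, against 45.5% of 3419 remaining fibre nuclei. The choice of nuclei used MYH1 and not MYH2, which favours a high share at the fast end.

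Along the slow share, MYH2 behaved differently in the 2 animals. In bins of the percentile of the slow share (0 to 15, 15 to 35, 35 to 55, 55 to 75, 75 to 95 and 95 to 100), animal 1 had 526, 487, 203, 61.2, 10.1 and 4.13 MYH2 UMIs per 10000. Animal 2 had 95.03, 116, 106, 98.7, 75.4 and 44.1. MYH2 was thus highest at the fast end in animal 1 and in the second bin in animal 2. MYH1, by contrast, was lower in each successive bin of animal 2, with 287, 272, 244, 194, 145 and 80.5 UMIs per 10000.

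**Figure D3:**
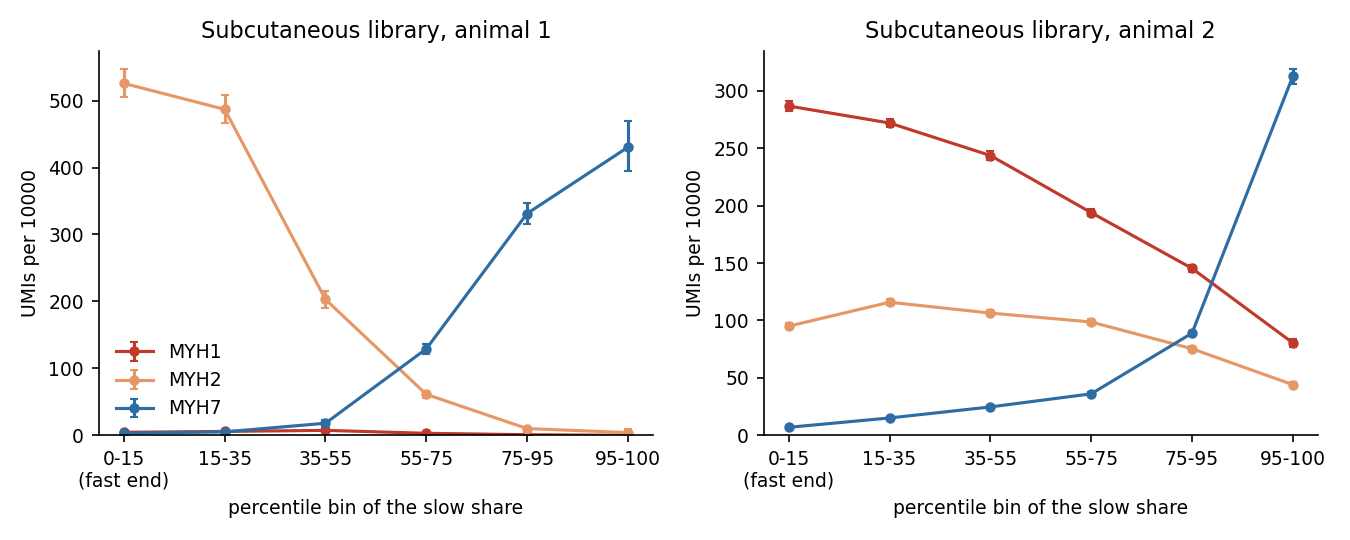
UMIs per 10000 (y axis) of MYH1, MYH2 and MYH7 in bins of the within-library percentile of the slow share (x axis, fast end at the left), pooled over the nuclei of a bin, with exact 95% Poisson intervals as bars. MYH2 starts at 526 in animal 1 and at 95.03 in animal 2, and MYH1 starts at 287 in animal 2 and stays near 0 in animal 1. MYH1 and MYH7 are among the 15 genes that set the x axis, and MYH2 is not.

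Genes outside the 15 were then compared between fast-end and remaining fibre nuclei. UMIs were summed per library and class, since nuclei of a library are not replicates, and tested with edgeR's quasi-likelihood test with the library as a block. The 4 sums leave 1 residual degree of freedom, so the p-values rest on a spread estimated over all genes. Called genes are those with a Benjamini-Hochberg adjusted p at or under 0.05 over 5589 genes. Of these, 40 (0.716%) were higher and 105 (1.88%) lower in the fast-end nuclei, 145 (2.59%) in all, and the median log2 fold change was -0.057. With library sizes taken without the 15 genes, 21 were higher and 135 lower, so that the share of calls that were higher was 13.5% in place of 27.6%. Without the block no gene passed, with 301 genes at an unadjusted p under 0.05.

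Other cell types' RNA moved with the classes. UMIs of 9 marker lists of other cell types took 0.490% and 0.167% of UMIs in the fast-end nuclei of animals 1 and 2, against 1.27% and 0.325% in the remaining fibre nuclei. At least 3 UMIs of 1 such list were held by 17 of 31 (54.8%) and 48 of 875 (5.49%) fast-end nuclei, against 107 of 156 (68.6%) and 533 of 4667 (11.4%). With those nuclei left out, 14 and 827 fast-end and 49 and 4134 remaining fibre nuclei stayed. Then 0 genes were higher and 30 lower of 3446 tested by edgeR, with 293 at an unadjusted p under 0.05. Most fibre gene groups below are also given for these nuclei with few other-type UMIs. What part these nuclei have in each result was not tested further.

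Fast-fibre genes that the choice did not use were mostly higher. Of 12 such genes 10 could be tested, and 7 of these (70%) rose, against 0.716% of all tested genes. The 10 had a median log2 fold change of 0.91, against -0.057 over all genes. TPM1, the tropomyosin of fast fibres, had 15290 and 24627 CPM in the fast-end nuclei of animals 1 and 2, against 4707 and 17158 CPM. It rose by 1.39 on the log2 scale (SE 0.32, edgeR adjusted p = 0.00243), and both animals showed the direction.

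ACTN3, the Z-disc actinin restricted to fast fibres, rose by 1.13 (SE 0.27, edgeR adjusted p = 0.00380), with 2125 and 4867 CPM in the fast-end nuclei, against 789 and 3743 CPM. TMOD4, a tropomodulin that caps thin filaments, had 954 and 1095 CPM, against 453 and 851 CPM. MYOM2, an M-band protein of fast fibres, had 1063 and 1320 CPM, against 499 and 1141 CPM. MYOZ1, a Z-disc protein of fast fibres whose gene overlaps SYNPO2L, had 3297 and 6097 CPM, against 1846 and 4539 CPM. These 3 genes all passed the test and lay higher in both animals, with a smaller ratio in animal 2.

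MYLK2, the skeletal myosin light chain kinase, passed with a log2 fold change of 0.85, which became -0.018 in nuclei with few other-type UMIs. MYH2 also passed, at 1.13 (SE 0.33, edgeR adjusted p = 0.0337), but the animals disagreed. It had 52572 CPM in the fast-end nuclei of animal 1 against 15567 CPM, a ratio of 3.38 (exact 95% interval 3.21 to 3.56). In animal 2 it had 9503 CPM against 9947 CPM, a ratio of 0.955 (0.930 to 0.981). Intervals of this kind cover counting error only. MYL1, the fast essential light chain, CASQ1, the calcium store protein of fast fibres, and MYOZ3 had fold changes of 0.91, 0.73 and 0.78 that did not pass. Taken alone, animal 1 gave log2 ratios of 0.84 to 1.76 for the 7 genes that passed, and animal 2 gave -0.066 to 0.52. In nuclei with few other-type UMIs the median of the 10 genes was 0.25 and none passed.

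Slow-fibre genes outside the choice split into a group that fell and a group that did not. Of 10 genes 8 could be tested, 4 (50%) fell and none rose, against 1.88% lower and 0.716% higher over all tested genes. The median was -0.90. PLN, which inhibits the slow calcium pump and whose gene overlaps CEP85L, had 43.4 and 62.6 CPM in the fast-end nuclei, against 612 and 225 CPM. It fell by 1.87 on the log2 scale (SE 0.33, edgeR adjusted p = 1.59e-05). ATP2A2, the pump itself, whose gene overlaps ANAPC7, had 152 and 56.8 CPM, against 499 and 254 CPM, and fell by 1.73 (SE 0.33, edgeR adjusted p = 0.000114).

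MYOZ2, a Z-disc protein of slow fibres, had 21.7 and 68.4 CPM in the fast-end nuclei, against 352 and 194 CPM, and fell by 1.48 (SE 0.34, edgeR adjusted p = 0.00279). MYH7B, a slow-tonic myosin, was nearly absent, with 0 and 1 UMIs in the fast-end nuclei against 6 and 130. In animal 2 its ratio was 0.0325 (exact 95% interval 0.000816 to 0.184), and in animal 1 the depth could show no difference. The log2 ratios of PLN and MYOZ2 were -3.82 and -4.02 in animal 1 alone and -1.85 and -1.50 in animal 2 alone. The ratios of animal 1 rest on 2 UMIs of PLN and 1 of MYOZ2 in its fast-end nuclei, so their size is uncertain. PLN, ATP2A2 and MYOZ2 also fell in nuclei with few other-type UMIs.

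The other slow-list genes did not pass. CSRP3, a stretch-responsive LIM protein, had 1453 and 556 CPM in the fast-end nuclei, against 3008 and 674 CPM. MYBPC1, the slow myosin-binding protein, had 8979 and 4114 CPM, against 7828 and 4530 CPM, so the animals differed in direction. ANKRD2 and TPM2 had fold changes of -0.11 and 0.75.

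Glycolysis was the group with the most calls by number, though by share the other fast-fibre genes had more. Of 18 genes 17 could be tested, 10 (58.8%) rose and 1 (5.88%) fell, against 0.716% and 1.88% of all tested genes. The median log2 fold change was 0.96. CPM were higher in both animals for 12 of the 17 and lower in both for 4. These shares were 70.6% and 23.5%, against 15.5% and 44.1% of all tested genes. ENO3, the muscle enolase, had 6029 and 11579 CPM in the fast-end nuclei of animals 1 and 2, against 2337 and 8207 CPM, and rose by 1.2 (SE 0.29, edgeR adjusted p = 0.00414). ALDOA, the muscle aldolase, had 9022 and 20982 CPM, against 3171 and 16449 CPM, and rose by 1.2 (SE 0.31, edgeR adjusted p = 0.0109). For both genes the fast-end nuclei of animal 1 stood below the remaining fibre nuclei of animal 2, so the classes overlap across animals and differ within each.

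TPI1, PGAM2, GAPDH, PFKM, PKM and PGK1, which code for enzymes of the same path, rose by 0.84 (PGK1, which overlaps TAF9B) to 1.15 (TPI1). FBP2, the muscle fructose bisphosphatase, which acts in the opposite direction to PFKM, also rose, by 0.96. LDHA, the lactate dehydrogenase of fast muscle, had 1670 and 2996 CPM in the fast-end nuclei, against 696 and 2155 CPM, and rose by 1.11 (SE 0.26, edgeR adjusted p = 0.00339). LDHB, the heart-type form, went the other way, with 108 and 71.3 CPM, against 684 and 135 CPM, and fell by 1.08 (SE 0.32, edgeR adjusted p = 0.0342).

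Taken alone, animal 1 gave log2 ratios of 0.84 to 1.51 for the 10 genes that rose, and animal 2 gave 0.19 to 0.57. No glycolysis gene was called higher without the block, with DESeq2's test, or with at least 60 fibre UMIs. The same held for the lowest 10% and at 500 UMIs per nucleus.

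ENO3 and LDHB were also followed along the whole slow share. From the fast end to the slow end animal 2 had 116, 104, 89.2, 73.2, 59.2 and 44.8 ENO3 UMIs per 10000, and animal 1 had 60.3, 48.2, 27.1, 15.7, 13.3 and 10.7. LDHB had 0.713, 0.812, 1.30, 1.12, 2.21 and 6.89 in animal 2 and 1.08, 1.17, 3.61, 7.90, 12.5 and 10.7 in animal 1. ENO3 was thus lower at each step in both animals, and LDHB was highest in one of the last 2 bins. A fall over the first bins was not particular to glycolysis. The skeletal actin ACTA1, shared by all fibres, had 251, 207, 136, 132, 225 and 265 in animal 1. In animal 2 ACTA1 had 254, 242, 216, 189, 189 and 271, so unlike ENO3 it was high again at the slow end. What part the amount of fibre RNA per nucleus has in the ENO3 values was not tested.

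Summed, glycolysis genes took 3.33% and 6.23% of UMIs in the fast-end nuclei of animals 1 and 2, against 1.43% and 4.66% in the remaining fibre nuclei. In nuclei with few other-type UMIs the sums were 3.92% and 6.35% against 2.12% and 5.13%. The median fold change of the list there was 0.39 with no gene called, so the higher sums stayed but the calls did not. In the endothelial-marker nuclei the sum was 0.343% and 1.48%.

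**Figure D4:**
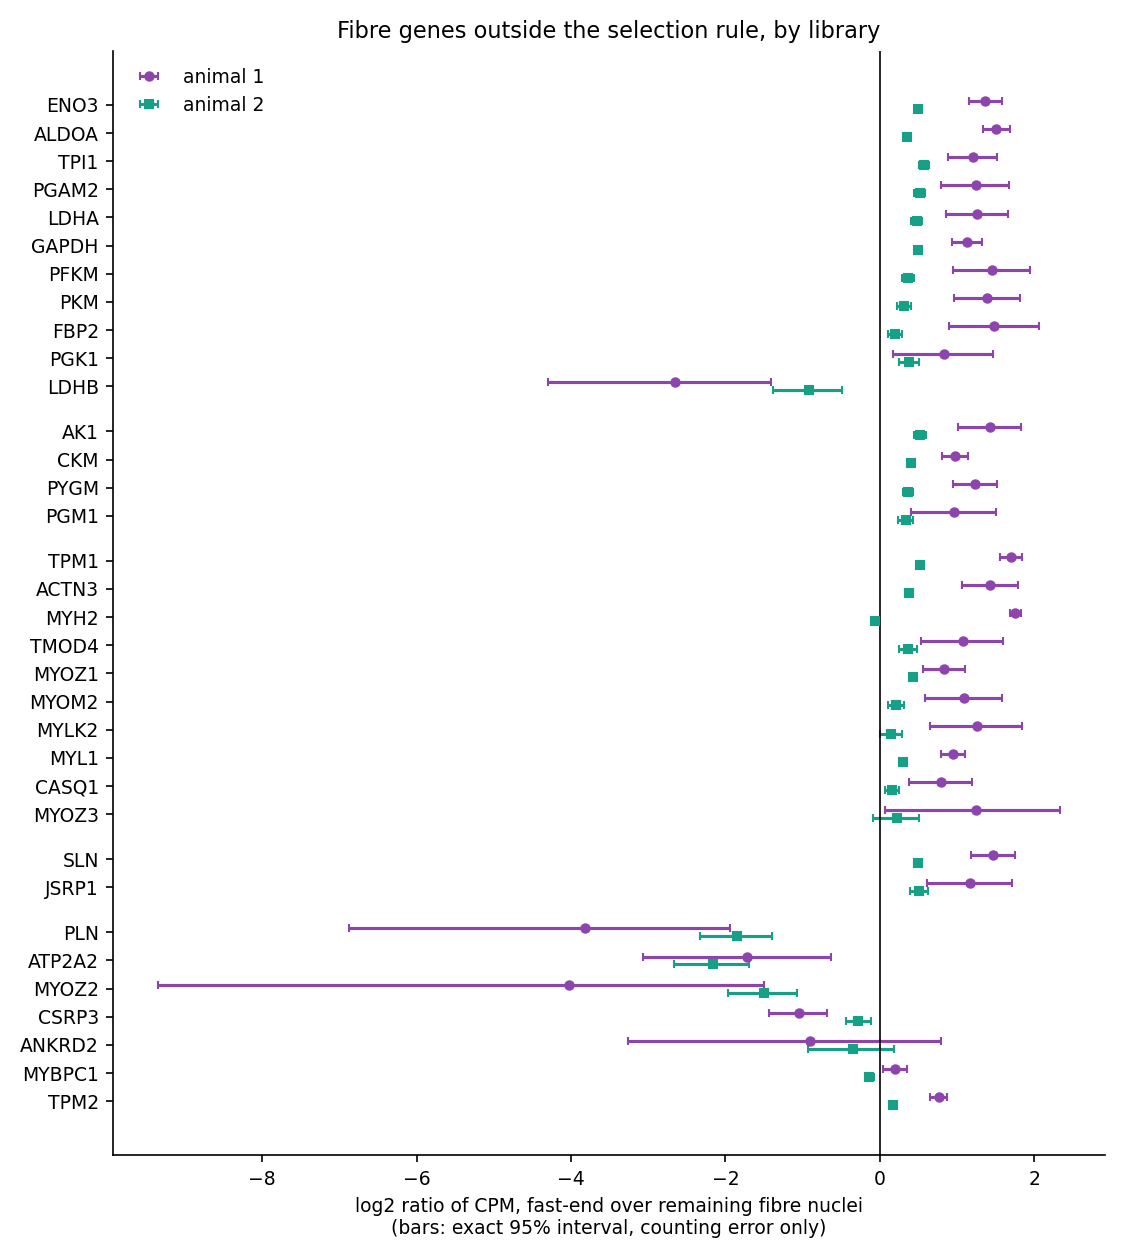
Log2 ratio of CPM, fast-end over remaining fibre nuclei (x axis), for fibre genes outside the 15 (y axis) in each animal, with exact 95% intervals that cover counting error only. The 10 glycolytic genes that rose lie to the right of 0 in both animals and farther in animal 1, LDHB, PLN, ATP2A2 and MYOZ2 lie to the left, and MYH2 lies right in animal 1 and at -0.066 in animal 2.

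Fewer genes of glycogen use and of rapid ATP supply passed. PYGM, the muscle glycogen phosphorylase, had 3188 and 3511 CPM in the fast-end nuclei, against 1355 and 2720 CPM, and rose by 1.06 (SE 0.26, edgeR adjusted p = 0.00561). PGM1, which passes glucose phosphate from glycogen to glycolysis, rose by 0.87. PYGM and PGM1 were 2 of 14 tested glycogen genes (14.3%, median 0.42), against 0.716% of all tested genes. AK1, the adenylate kinase that regenerates ATP from ADP, rose by 1.2 (SE 0.26, edgeR adjusted p = 0.00105), with 1670 and 2473 CPM, against 621 and 1724 CPM. CKM, the muscle creatine kinase, rose by 0.97. AK1 and CKM were 2 of 7 tested genes of phosphocreatine and purine use (28.6%, median 0.61). ADSS1, of the purine cycle, had 0.66 and did not pass. In nuclei with few other-type UMIs none of 13 glycogen and 5 phosphocreatine and purine genes passed, with medians of 0.063 and 0.35.

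Of 21 tested genes of calcium release and uptake, 2 (9.52%) rose (median 0.52), against 0.716% of all tested genes. SLN, sarcolipin, a small inhibitor of the calcium pump, had 3383 and 6797 CPM in the fast-end nuclei, against 1225 and 4822 CPM. It rose by 1.23 (SE 0.28, edgeR adjusted p = 0.00176), whereas PLN, the inhibitor in slow fibres, fell. JSRP1, a protein of the junction between the calcium store and the surface tubules, rose by 1.06. The release channel RYR1 had a fold change of 0.52, which did not pass and was -0.34 in nuclei with few other-type UMIs. There the median of the list was -0.065 over 20 tested genes, 8 of them above 0, and none passed.

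Sarcomere genes shared by all fibres and mitochondrial genes gave no calls. Of 20 shared sarcomere genes none passed (median 0.26, and -0.19 with few other-type UMIs), and titin (TTN) is not analysed here. The skeletal actin ACTA1 had 25115 and 25450 CPM in the fast-end nuclei, against 16699 and 21005 CPM, and the intermediate filament gene DES had 8675 and 10793 CPM, against 5265 and 9192 CPM.

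All 52 genes found for the respiratory chain could be tested and none passed. Their median was 0.47, with 51 (98.1%) above 0, against 47.0% of all tested genes. In nuclei with few other-type UMIs their median was only 0.02, with 32 above 0. Summed, they took 2.17% and 2.22% of UMIs in the fast-end nuclei of animals 1 and 2, against 1.82% and 2.04%. In nuclei with few other-type UMIs they took 2.19% and 2.25%, against 2.44% and 2.19%. Nuclei above the 95th percentile of the slow share had 3.54% and 3.17%. In animal 1 the direction thus turned with the nuclei kept, and in both animals the slow end was highest.

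RNA encoded in the mitochondria took 1.59% (exact 95% interval 1.48 to 1.71) and 1.40% (1.37 to 1.43) of UMIs in the fast-end nuclei, against 2.07% (2.01 to 2.13) and 1.58% (1.56 to 1.59). The nuclei above the 95th percentile had 2.78% and 3.54%. Of 17 citric acid cycle genes and 22 of fatty acid oxidation and oxygen storage none passed (medians 0.32 and 0.08, and -0.048 and -0.18 with few other-type UMIs). Myoglobin, MB, the oxygen store of oxidative fibres, had 8111 and 4701 CPM, against 6959 and 4546 CPM, and turned to a fold change of -0.13 in nuclei with few other-type UMIs.

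**Figure D5:**
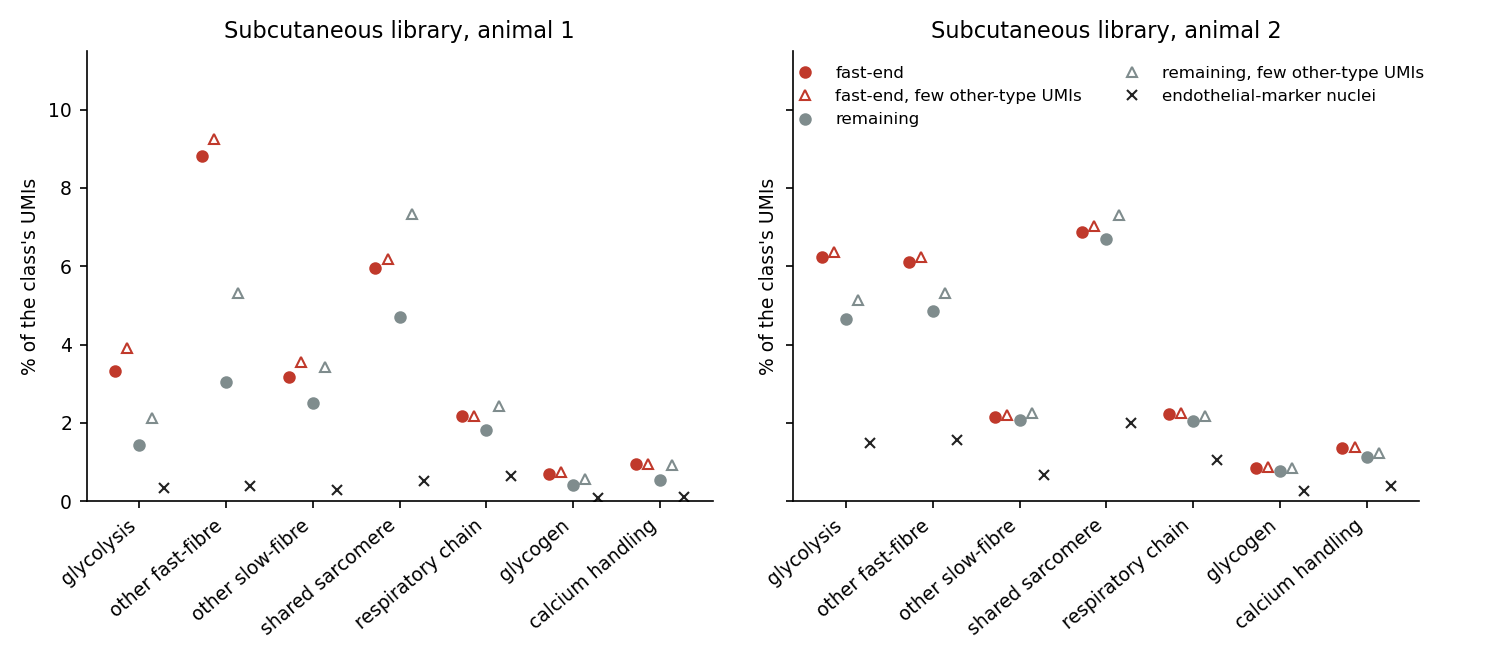
Share of a class's UMIs in percent (y axis) taken by 7 gene lists outside the 15 genes (x axis) in each animal. Filled circles are fast-end and remaining fibre nuclei, triangles the same with few other-type UMIs, and crosses endothelial-marker nuclei. Glycolysis and other fast-fibre genes are higher in fast-end nuclei in both animals, while the respiratory chain lies at 2.17% and 2.22% against 1.82% and 2.04%.

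Among 33 tested regulators of fibre type 1 (3.03%) rose and 3 (9.09%) fell (median -0.21), against 0.716% and 1.88% of all tested genes. PPARGC1A, the coactivator known from mouse to drive mitochondrial and slow-fibre genes, had 0 and 6 UMIs in the fast-end nuclei, against 26 and 180 in the remaining fibre nuclei. In animal 1 it was at least 1.68-fold lower, with 3 counts as the limit of a count of 0. In animal 2 its ratio was 0.141 (exact 95% interval 0.0510 to 0.313), and the fitted log2 fold change was -2.67 (SE 0.60, edgeR adjusted p = 0.00185). It also fell in nuclei with few other-type UMIs. Along the slow share of animal 2 it had 0.0873, 0.212, 0.229, 0.427, 1.63 and 0.696 UMIs per 10000.

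MYF6, a muscle-specific transcription factor, had 521 and 421 CPM in the fast-end nuclei, against 222 and 301 CPM, and rose by 1.03 (SE 0.27, edgeR adjusted p = 0.0129). NR4A1, an orphan nuclear receptor, fell by 0.89 on the log2 scale, with 282 and 253 CPM, against 969 and 488 CPM, and had 1340 and 1518 CPM in the endothelial-marker nuclei. The third that fell was MYOZ2. NFIA had -0.82 and did not pass. Atrophy and growth, developmental and neuromuscular junction genes gave 0 calls in 14, 9 and 4 tested genes.

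Beyond the lists, the called genes with the largest rises included CST6, a cystatin protease inhibitor, and PHF5A, a splicing factor. CST6 rose by 1.17 (SE 0.28, edgeR adjusted p = 0.00466), with 325 and 638 CPM in the fast-end nuclei, against 101 and 426 CPM. PHF5A rose by 1.18. Of the 40 genes called higher, 36 (90%) had less CPM in the endothelial-marker nuclei than in the remaining fibre nuclei in both animals, against 28.4% of all tested genes.

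The largest falls were mostly of genes that were high in nuclei of another type. SLC2A3, a glucose transporter, had 21.7 and 18.9 CPM in the fast-end nuclei, against 1070 and 87.2 CPM in the remaining fibre nuclei, and 1691 and 413 CPM in the endothelial-marker nuclei. In the fast-end nuclei of animal 1, 21.7 CPM is 1 UMI, so low values there rest on few UMIs. CAV1, the membrane coat protein caveolin, had 86.8 and 62.6 CPM, against 847 and 305 CPM, with 2588 and 2531 CPM in the endothelial-marker nuclei. Of the 105 genes called lower, 79 (75.2%) had more CPM in the endothelial-marker than in the remaining fibre nuclei in both animals, against 49.9% of all tested genes.

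ADM, SAT1, IL33, TCIM, BAZ2B, N4BP2L1, SLC9A3R2 and the unnamed gene ENSBTAG00000037799 fell, with log2 fold changes of -2.45 to -2.01, with SLC9A3R2 and ENSBTAG00000037799 at 0 UMIs in the fast-end nuclei of animal 1. All 8 were higher in the endothelial-marker than in the remaining fibre nuclei in both animals. VEGFA, the vascular growth factor, was different. It had 43.4 and 29.1 CPM in the fast-end nuclei, against 168 and 164 CPM in the remaining fibre nuclei, and 109 and 117 CPM in the endothelial-marker nuclei. The 43.4 CPM of animal 1 are 2 UMIs. VEGFA fell by 2.09 (SE 0.41, edgeR adjusted p = 0.000151), and again in nuclei with few other-type UMIs. ASB5, an ankyrin repeat gene chosen after its values were seen, also fell in both sets of nuclei. It had 737 and 453 CPM in the fast-end nuclei, against 2618 and 1157 CPM, and 553 and 377 CPM in the endothelial-marker nuclei.

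The lists of other cell types lay below 0 as groups. Of 12 tested adipocyte genes 4 (33.3%) fell (median -0.93), against 1.88% of all tested genes. They were the fatty acid carrier FABP4 and, named after their values were seen, LIPE, GPAM and FASN of fat breakdown and synthesis. Another 1 of the 12 was higher in both animals, with a log2 fold change of 1.14, but did not pass. FABP4 had 672 and 99.0 CPM in the fast-end nuclei, against 2823 and 155 CPM in the remaining fibre nuclei. Of 9 blood endothelial genes 2 (22.2%) fell (EGFL7 and, named after its values were seen, PECAM1, median -1.43). Of 7 pericyte and smooth muscle genes 1 (14.3%) fell (MYH11, which overlaps NDE1, median -0.63), and of 11 progenitor genes 0 (median -0.55). None of 3 satellite cell, 2 macrophage and 1 Schwann cell genes passed, and no lymphocyte, mast cell or red cell gene had the counts to be tested. The progenitor collagen gene COL3A1 had 1171 and 188 CPM, against 2055 and 335 CPM. Adipocyte markers took 0.174% and 0.0300% of UMIs, against 0.511% and 0.0581%, and none of the 13 was at 0 in the fast-end nuclei of either animal. Of the 12 blood endothelial markers 6 were at 0 in animal 1 and 1 in animal 2, and the list took 0.0217% and 0.0208%, against 0.122% and 0.0586%. Both the UMIs of these lists and the nuclei holding 3 or more of them were fewer, so whole nuclei of other types among the fibre nuclei and free RNA of such nuclei cannot be told apart.

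Within the fast-end nuclei of animal 2, several genes outside the choice went with the myosin mixture. From the 519 nuclei with 80% or more MYH1, through the 244 in between, to the 47 with 20% or less, glycolysis genes took 6.83%, 5.54% and 5.12% of UMIs. Respiratory chain genes took 2.17%, 2.22% and 3.02%, and citric acid cycle genes 0.347%, 0.378% and 0.550%. The first sum was lowest and the other 2 highest in the nuclei with the least MYH1.

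CSRP3 had 235 CPM (exact 95% interval 191 to 286) in the nuclei with the most MYH1, 847 (721 to 987) in those between and 2491 (2040 to 3012) in those with the least. ALDOA had 23188, 18777 and 15394 CPM, and MYLK2 844, 658 and 165 CPM in the same order. MYBPC1 had 3837, 4327 and 6416 CPM. CSRP3 and MYBPC1 thus went opposite to ALDOA and MYLK2. Summed, the slow list took 2.10%, 2.19% and 2.71% of UMIs in the same order. The fast list, which holds MYH2 of the split itself, took 5.79%, 6.64% and 8.37%, but its single genes did not all go the same way. Of the fast list, ACTN3 and MYOZ1 fell in the same order as MYLK2. MYL1 and TMOD4 also had lower CPM in that order, with overlapping intervals, and TPM1 and MYOM2 were lowest in the nuclei between. CASQ1 had 1855, 1860 and 2092 CPM, and MYOZ3 171, 188 and 235 CPM. The intervals of both genes overlapped across the 3 groups of nuclei, so no rise is shown beyond counting error. Of the slow list, TPM2 had 16725 CPM (16340 to 17117) in the nuclei with the most MYH1 and 16430 CPM (15865 to 17010) in those between. These intervals overlap, so no difference between them is shown. The fast-end nuclei of animal 1, all with little MYH1, had 3.33% glycolysis genes, 2.17% respiratory chain genes and 1453 CPM of CSRP3, all below the values of the nuclei of animal 2 with the least MYH1. The split was made after seeing the data, rests on nuclei of 1 library and has no replicate check.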

How the data were processed

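Nuclei of 2 steers were profiled in 4 droplet libraries, and the fast-end nuclei come from the 2 labelled subcutaneous. The authors deposited unnormalised UMI counts for each barcode, made with Cell Ranger 6.0.1 per the file headers, on genome build ARS-UCD1.2 per the submitters' processing notes. Not given in the sources used here were the annotation release and the use of intronic reads. The files list 21861 genes, 4251 of them unnamed. Gene overlaps come from a RefSeq gene table of another assembly, used for names only.

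Nuclei were chosen as described, with no limit on mitochondrial RNA. No doublet caller was run. Instead, nuclei with at least 3 UMIs of 1 other-type marker list were left out as an alternative. The subcutaneous library held 1143166 UMIs in animal 1 and 4009437 in animal 2, and the intramuscular library 2719366 and 105481. CPM are UMIs per 1000000 of a class in a library. Ratios have exact conditional binomial 95% intervals and shares exact Clopper-Pearson ones.

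Sums were tested with edgeR 4.0.16 (filterByExpr, TMM, quasi-likelihood F test) in R 4.3.3, with the library as a block because both classes share it. The 15 genes stayed in library sizes and out of the test. Fitted fold changes used library sizes scaled by TMM, and CPM were not scaled so. A fitted value can therefore lie outside the CPM ratios of both animals, as for NR4A1. The SE is the absolute log2 fold change over the square root of F. On simulated data with these 5589 genes the test recovered 7.46% of 2-fold, 61.2% of 4-fold and 98.5% of 8-fold changes. The simulation gave a gene the same change in both animals and all genes the same spread. These rates therefore do not cover changes that differ between the animals, as many did here. With 2 libraries an exact permutation test cannot go below 0.33, or 0.5 when paired, so values of single measures carry no test.

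Genes named in the text are, beside the 15, the 12 largest called changes in each direction with at least 50 CPM in the higher class and the same direction in both animals, all tested genes of the other fast and slow lists, the 4 most counted and all called genes of other fibre lists, and the most counted marker of each other cell type. Of 95 such genes 29 that did not pass are given only through their list's counts, and 1 that passed is not reported here. The nuclei and gene lists were chosen with earlier results of these data known. Alternatives were another scaling, DESeq2 1.42.0, other minimum counts for genes and nuclei, other limits of the classes, and nuclei thinned to 500 UMIs.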

Additional observations from a re-analysis of the deposited data

Results flagged for a closer look

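A little RNA of the 7 fast genes appeared in the intramuscular libraries, which no comparison here uses. It came to 53 UMIs in the 1777 nuclei of animal 1 and 9 UMIs in the 63 nuclei of animal 2, above the 3 counts that a count of 0 allows. The highest sum of fast and slow fibre genes in 1 nucleus was 7 UMIs in animal 1 and 3 UMIs in animal 2. The slow genes had 555 and 18 UMIs there, so slow-gene UMIs outnumbered fast-gene UMIs in both intramuscular libraries.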

How the results depend on the processing

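The counts of 40 genes higher and 105 lower in fast-end nuclei, given here in that order, moved with most choices, and the causes were not tested. They were 0 and 0 without the replicate block (301 at an unadjusted p under 0.05), 1 and 4 with DESeq2's test (167), 17 and 38 with no filter on low counts, 1 and 30 with at least 60 fibre UMIs, 160 and 293 with at least 500 genes, 0 and 51 for the lowest 10%, 197 and 260 for the lowest 25%, 0 and 30 without nuclei holding other-type markers, and 0 and 7 at 500 UMIs per nucleus (508). Against the 50th to 95th percentile only, chosen after seeing the data, they were 78 and 286. Library sizes without the 15 genes gave 21 and 135. DESeq2 size factors (45 and 104), a limit of 10% mitochondrial RNA (38 and 107) and all remaining nuclei as comparison (33 and 90) stayed within 1.5 times.

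With at least 60 fibre UMIs the pooled slow share was 0.915% and 1.22% in animals 1 and 2. The mean over nuclei of MYH2 at the fast end of animal 1 was 557 UMIs per 10000. Signs turned for MYH2 (-0.066 without animal 1, 1.76 without animal 2), MYLK2 (-0.018 without other-type markers), RYR1 (-0.34 likewise), MB (-0.13 likewise, -0.033 with at least 60 fibre UMIs), ANKRD2 (0.12 at 500 UMIs) and MYBPC1 (-0.041 with at least 60 fibre UMIs, -0.20 without other-type markers, -0.052 with nuclei weighted equally, -0.14 to 0.20 without 1 animal). No count is given without 1 animal, since no residual degree of freedom is left. The 31 fast-end nuclei of animal 1 limit what a ratio there can show.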
